A study of Mus musculus with 18 samples.

Results

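Aminoacyl-tRNA synthetases are the enzymes that join each amino acid to its transfer RNA, and their mRNAs were followed here in mouse dorsal root ganglia and in the ribosome-bound mRNA of Nav1.8-expressing sensory neurons. The genes were chosen by name, as symbols made of the 1-letter code of an amino acid followed by "ars", with or without a final 2, together with Eprs, Farsa and Farsb, and by a level of at least 1 CPM (a gene's count scaled to a common library size) in at least 4 of 16 libraries. All 37 genes with such names passed that filter, out of 22021 genes listed and 14214 tested. They comprised 18 genes of the cytosol, 2 genes that serve both the cytosol and mitochondria (Gars and Kars) and 17 genes of mitochondria.

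The mice carried Rosa26fsTRAP, a Cre-dependent fusion of EGFP with ribosomal protein L10a, and Nav1.8cre on a C57BL/6J background, so that Cre made under the Scn10a promoter labelled ribosomes in Nav1.8 neurons, most of which are nociceptors. Translating ribosome affinity purification (TRAP) with antibodies to GFP recovered these ribosomes from a detergent-treated ganglion extract, and a part of the same extract was kept as input. The 4 groups were paclitaxel TRAP, paclitaxel input, normal TRAP and normal input, each of 4 biosamples, from male and female littermates 8 to 12 weeks old that all carried both alleles. Paclitaxel binds microtubules and is used against cancers, and painful neuropathy is a known side effect. Mice of the paclitaxel groups had 4 injections into the abdomen within 8 days, each of 4 mg/kg and 16 mg/kg in all, in a cremophor vehicle. The labels do not say whether the mice called normal received the vehicle, nor how many animals made up a biosample, so p-values measure the spread between these samples.

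Cells hold separate sets of synthetases for protein synthesis in the cytosol and inside mitochondria, and most mitochondrial enzymes are made from nuclear genes of their own. The enzymes fall into class I and class II, which have unrelated catalytic folds. In the cytosol 8 of the listed enzymes (products of Dars, Eprs, Iars, Kars, Lars, Mars, Qars and Rars) form the multisynthetase complex on a scaffold. When uncharged transfer RNA accumulates, the kinase GCN2 and the transcription factor ATF4 raise the mRNA of many cytosolic synthetases through amino acid response elements. In humans, dominant or recessive variants of several cytosolic synthetase genes cause inherited neuropathies of peripheral axons, which links the family to sensory and motor neurons.

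The libraries were 3′ end libraries, in which a read marks a transcript end, so CPM is not divided by transcript length and was compared between genes on that scale. The TRAP libraries held 5972327 to 32713516 reads over the listed genes and the inputs 4266007 to 14478012. Pulldowns reached 1 CPM in fewer genes, 8081 to 13228, against 13152 to 14043 in inputs. Of 15 nociceptor markers 8 rose in TRAP over both treatments and 0 fell, while 8 of 8 large-fibre neuron, 8 of 8 satellite glia, 10 of 10 Schwann cell and 8 of 8 fibroblast markers fell, against 7.64% of all genes that rose and 41.6% that fell. In normal mice 3 of the nociceptor markers rose and 2 fell (Trpv1 and Calca), against 5.09% and 24.7% of all genes. In paclitaxel mice 8 rose and 0 fell, against 4.92% and 23% of all genes. Of 10 pan-neuronal markers 5 rose and 3 fell (Map2, Elavl4 and Snap25) over both treatments. Summed Schwann cell markers stood at 1950 to 3183 CPM in TRAP, against 5996 to 10717 CPM in inputs, so RNA of other cells was reduced in the pulldown but still present, and no marker of these lists was at 0 in every pulldown. In bulk samples such as these, fewer cells of a type and less RNA per cell cannot be told apart. The 2 subsamples of paclitaxel biosample 7, averaged here, differed in single genes, as in Kars with 159.9 and 49.7 CPM in their pulldowns.

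Promoters of 27 of the 37 genes were found in the RefSeq table (build GRCm38.p6), as windows from 250 bases before to 50 after the transcription start. The letters TGATGNAA, a core of the amino acid response element, were searched on both strands and occurred in 5 of the 27 windows (18.5%), those of Aars, Gars, Iars, Tars and Yars, against 4.06% of 27025 promoters in the table. The letters CCGGAAG, a core of sites for ETS factors, occurred in 9 of 27 (33.3%), against 9.12% of all promoters, and GCGCATGC, a core of sites for NRF1, in 3 of 27 (11.1%; Rars2, Vars2 and Wars2), against 2.80%. These motifs were chosen with the results known, and a match is a description of the letters only. The windows of the 3 genes that hold TGATGNAA and also passed a test of TRAP against input are shown. They were chosen because on the deposited scale they lie on both sides of that comparison, Gars higher and Aars and Iars lower. Of the scalings described below, median-ratio scaling called neither Aars nor Iars lower, and quantile normalization called Iars alone lower. Capitals mark the motif on either strand, and each line runs 5′ to 3′ along the gene's own strand.
Gars, chr6:55037751-55038050, plus strand: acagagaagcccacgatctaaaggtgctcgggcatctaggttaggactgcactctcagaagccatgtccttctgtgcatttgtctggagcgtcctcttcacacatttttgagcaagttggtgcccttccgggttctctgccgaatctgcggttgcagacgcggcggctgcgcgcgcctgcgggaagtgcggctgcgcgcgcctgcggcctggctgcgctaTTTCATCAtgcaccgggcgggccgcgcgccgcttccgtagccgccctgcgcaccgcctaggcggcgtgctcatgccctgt
Aars, chr8:111033592-111033891, plus strand: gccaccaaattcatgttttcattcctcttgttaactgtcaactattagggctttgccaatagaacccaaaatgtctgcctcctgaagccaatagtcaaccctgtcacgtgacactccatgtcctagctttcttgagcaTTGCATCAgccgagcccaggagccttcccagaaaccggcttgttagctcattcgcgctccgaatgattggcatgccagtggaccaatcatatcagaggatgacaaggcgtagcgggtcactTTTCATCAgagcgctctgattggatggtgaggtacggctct
Iars, chr13:49681880-49682179, plus strand: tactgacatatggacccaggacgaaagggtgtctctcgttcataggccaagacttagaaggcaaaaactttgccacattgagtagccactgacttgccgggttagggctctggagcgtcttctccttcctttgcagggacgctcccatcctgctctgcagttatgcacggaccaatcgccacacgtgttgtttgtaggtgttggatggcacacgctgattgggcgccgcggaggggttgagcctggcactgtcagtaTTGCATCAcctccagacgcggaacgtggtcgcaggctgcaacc
The Gars and Iars windows held the motif once, and the Aars window held it at 2 places.

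Levels spanned a wide range. Averaged over 8 inputs, Nars, the asparagine enzyme of the cytosol, had the highest level of the family with 196 ± 39.8 CPM (SD, n = 8), followed by the fused glutamate and proline enzyme Eprs with 169 ± 27.7 CPM and by Gars, the glycine enzyme, with 113 ± 25.6 CPM. The lowest levels were those of the mitochondrial genes Pars2 with 1.61 ± 0.792 CPM, Sars2 with 1.84 ± 1.11 CPM and Aars2 with 2.25 ± 1.27 CPM, for proline, serine and alanine. In TRAP the order at the top was Eprs with 217 ± 86.9 CPM, Gars with 207 ± 33.2 CPM and Nars with 177 ± 53.0 CPM (SD, n = 8), which did not differ beyond their spread. All members together made up 1356 to 2060 CPM of a pulldown, against 1252 to 1812 CPM of an input, and the 2 fractions overlapped.

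For 14 amino acids the genes chosen by name hold 1 cytosolic and 1 mitochondrial gene. The cytosolic gene was higher in all 8 inputs for 11 of these pairs, with a median ratio of 5.09 between the mean levels. The widest ratio was that of serine, where Sars averaged 71.0 CPM and Sars2 1.84 CPM in inputs, a ratio of 38.5. Valine was reversed in all 8 inputs, with the cytosolic Vars at 2.71 CPM and the mitochondrial Vars2 at 15.1 CPM. Cysteine was reversed in all 8 inputs too, with Cars at 11.9 CPM and Cars2 at 19.1 CPM. For isoleucine the levels lay within their spread, 93.7 ± 12.2 CPM for Iars and 101 ± 16.4 CPM for Iars2 (SD, n = 8), and Iars was the higher one in 4 of 8 inputs. In the pulldowns Cars (34.8 CPM) was above Cars2 (31.5 CPM) in 6 of 8, whereas Vars (5.50 CPM) was above Vars2 (14.5 CPM) in 1 of 8. These ratios are levels of 3′ end reads and carry no test. Exons of Cars, Cars2, Iars2 and Vars2 overlap other genes on the opposite strand, so their reads may not be fully separate.

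**Figure D1:**
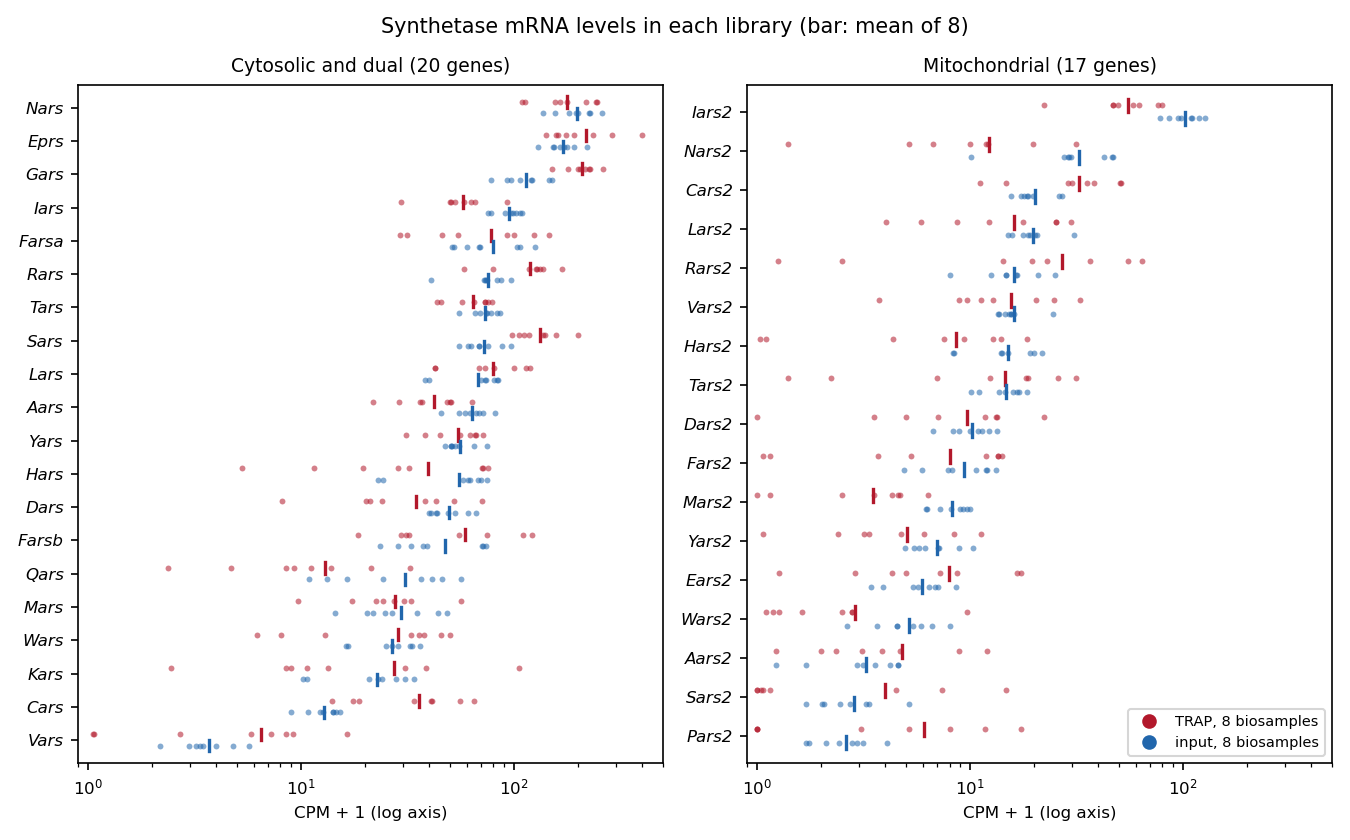
Level of each synthetase mRNA in every library, as CPM + 1 on a log axis, with the 8 TRAP libraries (red) above the 8 inputs (blue) of each gene and a bar at their mean. Genes are ordered by mean input level, from Nars (196 CPM) down to Vars (2.71 CPM) in the left panel and from Iars2 (101 CPM) down to Pars2 (1.61 CPM) in the right, and the low mitochondrial genes scatter more in TRAP than in input.

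The spread between biosamples was larger in TRAP than in input. The median SD of log2(CPM + 1) over the 17 mitochondrial genes was 1.09 in paclitaxel TRAP and 1.14 in normal TRAP, against 0.32 in paclitaxel input and 0.40 in normal input. For the 20 cytosolic and dual genes it was 0.56 and 0.59 in the same TRAP groups, against 0.26 and 0.36 in the same inputs. Over all genes tested it was 0.73 in paclitaxel TRAP and 0.79 in normal TRAP, against 0.26 and 0.43 in the inputs. In TRAP 12 members had a library at or under 3 reads and 8 had a library at 0, which in input held for 2 and 0 members. Sars2, Pars2, Mars2, Hars2, Fars2 and Vars had 3 or more of the 9 single pulldown libraries at or under 3 reads, so their changes rest on few reads.

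The first comparison asked which synthetase mRNAs were more or less abundant on the ribosomes of Nav1.8 neurons than in the whole ganglion. With both treatments together, 4 of 37 members rose in TRAP (10.8%; Cars, Gars, Sars and Rars) and 10 fell (27.0%; Nars2, Mars2, Qars, Hars2, Wars2, Iars2, Hars, Iars, Dars and Aars), in limma with biosample as a block and a Benjamini-Hochberg adjusted p under 0.05 over all genes tested. Over all 14214 genes 7.64% rose and 41.6% fell. The members' median log2 change was -0.22 and that of all genes -0.62, and 25 of 37 members lay above the median of all genes. Among the 17 mitochondrial genes 0 rose and 5 fell, with a median of -0.56, while among the 20 cytosolic and dual genes 4 rose and 5 fell, with a median of -0.16.

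These directions are relative to the scaling, since most genes fell. With median-ratio scaling the median of all genes moved to -0.32 and the members' calls to 7 higher and 3 lower, and with quantile normalization it moved to 0.03 and the calls to 9 higher and 4 lower. Under these scalings 26 and 26 of 37 members lay above the median of all genes, against 25 on the deposited scale. Of all genes called in either direction, 15.5% were higher on the deposited scale, 35.5% with median-ratio scaling and 50.1% with quantile normalization. Relative to the median of all genes, Cars stood at 1.93, Sars at 1.49, Rars at 1.25 and Nars2 at -1.11 on the log2 scale, while Hars, Iars, Dars and Aars lay between -0.22 and -0.03. The median of the mitochondrial genes turned from -0.56 to 0.27 under quantile normalization, with 4 called higher and 2 lower, so their direction as a group depends on the scaling. Cars, Gars, Sars and Rars remained higher, and Iars2, Nars2 and Qars lower, under each of the 20 alternatives tried.

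Gars, whose product charges glycine in both compartments and whose variants cause Charcot-Marie-Tooth neuropathy in humans and neuropathy in mice, was the member with the lowest p. It lies at chr6:55038007-55079500 (plus strand, GRCm38) and shares no exon with another gene. In paclitaxel biosamples 5 to 8 it had 204, 150.1, 223 and 178 CPM in TRAP, against 95.7, 76.6, 119 and 119.8 CPM in their inputs. In normal biosamples 1 to 4 it had 214, 199, 261 and 226 CPM in TRAP, against 105, 145, 149 and 91.4 CPM in input. Each pulldown was above its own input, and the lowest pulldown was above the highest input. In limma its log2 change was 0.88 (SE 0.147, adjusted p = 6.2e-05, 8 biosamples), a 1.85-fold higher level.

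Sars, the serine enzyme of the cytosol, was the member with the second lowest p. In paclitaxel biosamples it had 104, 156, 116 and 110.3 CPM in TRAP, against 67.8, 74.5, 59.9 and 61.5 CPM in input. In normal biosamples it had 138, 96.4, 135 and 198 CPM in TRAP, against 54.0, 96.2, 86.5 and 67.5 CPM in input. All 8 pulldowns were above their inputs, though in normal biosample 2 the values were 96.4 and 96.2 CPM. Sars thus rose by 0.87 on the log2 scale (SE 0.180, adjusted p = 0.00051 by limma), or 1.83-fold.

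Cars, the cysteine enzyme of the cytosol, had the largest rise of the family, at a low level. In paclitaxel biosamples it had 33.0, 17.8, 12.9 and 16.6 CPM in TRAP, against 13.2, 11.6, 11.2 and 7.96 CPM in input. In normal biosamples it had 63.6, 54.7, 40.4 and 39.9 CPM in TRAP, against 13.6, 9.81, 13.2 and 14.3 CPM in input. Pulldowns were above their inputs in 8 of 8 biosamples, and the normal pulldowns were the 4 highest. Over both treatments Cars rose by 1.31 on the log2 scale (SE 0.317, adjusted p = 0.0020 by limma), or 2.47-fold. Cars overlaps exons of Gm15580 on the opposite strand, and the strand setting of the counting is not given in the sources used here.

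Rars, the arginine enzyme and a member of the multisynthetase complex, rose less evenly. In paclitaxel biosamples it had 78.7, 132, 57.3 and 126 CPM in TRAP, against 81.8, 85.6, 73.7 and 72.2 CPM in input. In normal biosamples it had 128, 135, 117 and 167 CPM in TRAP, against 39.6, 96.3, 72.8 and 71.5 CPM in input. All normal pulldowns were above all normal inputs, whereas paclitaxel biosamples 5 and 7 had less in TRAP than in input. The rise of Rars was 0.63 on the log2 scale (SE 0.184, adjusted p = 0.0074 by limma).

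Nars2, the asparagine enzyme of mitochondria, had the largest fall. In paclitaxel biosamples it had 30.5, 4.16, 11.1 and 18.6 CPM in TRAP, against 41.6, 45.3, 26.4 and 28.1 CPM in input. In normal biosamples it had 0.40, 9.02, 10.8 and 5.69 CPM in TRAP, against 27.8, 28.6, 45.9 and 9.14 CPM in input. Each pulldown was below its own input, but the fractions overlapped, since the pulldown of paclitaxel biosample 5 exceeded 5 of the 8 inputs. Nars2 was 3.32-fold lower in TRAP (log2 change -1.73, SE 0.423, adjusted p = 0.0021 by limma). Its exons overlap another gene on the opposite strand.

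Qars, the glutamine enzyme of the cytosol and of the multisynthetase complex, fell by 1.40 on the log2 scale (SE 0.357, adjusted p = 0.0028 by limma). In paclitaxel biosamples it had 12.8, 10.2, 31.5 and 20.3 CPM in TRAP, against 45.0, 35.6, 55.3 and 40.2 CPM in input. In normal biosamples it had 8.28, 1.38, 7.49 and 3.68 CPM in TRAP, against 15.4, 12.2, 23.2 and 9.85 CPM in input. All 8 pulldowns were below their inputs, and within each treatment the fractions did not overlap.

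Iars2, the isoleucine enzyme of mitochondria and the most abundant mitochondrial member, fell by 0.97 on the log2 scale (SE 0.213, adjusted p = 0.00092 by limma). In paclitaxel biosamples it had 75.3, 21.2, 45.7 and 78.6 CPM in TRAP, against 85.0, 97.2, 108 and 93.3 CPM in input. In normal biosamples it had 48.2, 61.1, 56.9 and 45.9 CPM in TRAP, against 109, 76.9, 126 and 118 CPM in input. Every pulldown was below its input, with paclitaxel biosample 6 the lowest and normal biosample 2 the closest normal pair. Its exons overlap those of Rab3gap2 on the opposite strand, which did not pass, with 0.32 (SE 0.314, adjusted p = 0.41 by limma).

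Mars2 and Hars2, mitochondrial enzymes for methionine and histidine, had low levels. Mars2 had 3.28, 0, 3.69 and 2.55 CPM in paclitaxel TRAP and 0.15, 5.37, 3.56 and 1.51 CPM in normal TRAP, against 8.99, 8.25, 6.24 and 5.20 CPM in paclitaxel input and 8.63, 5.26, 7.11 and 7.97 CPM in normal input. The pulldown was below its input in 7 of 8 biosamples (log2 change -1.45, SE 0.473, adjusted p = 0.015 by limma). Hars2 had 17.5, 0.03, 3.36 and 11.8 CPM in paclitaxel TRAP and 0.10, 8.35, 13.0 and 6.53 CPM in normal TRAP, against 18.9, 13.1, 18.1 and 14.1 CPM in paclitaxel input and 7.37, 20.8, 13.0 and 7.27 CPM in normal input. All 8 pulldowns were below their inputs, in normal biosample 3 by a margin of 12.97 against 12.99 CPM (log2 change -1.32, SE 0.500, adjusted p = 0.033 by limma). Hars2 starts head to head with Hars on chromosome 18, and the deposited table gives 1 locus for both genes, so their reads may not be fully separate.

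**Figure D2:**
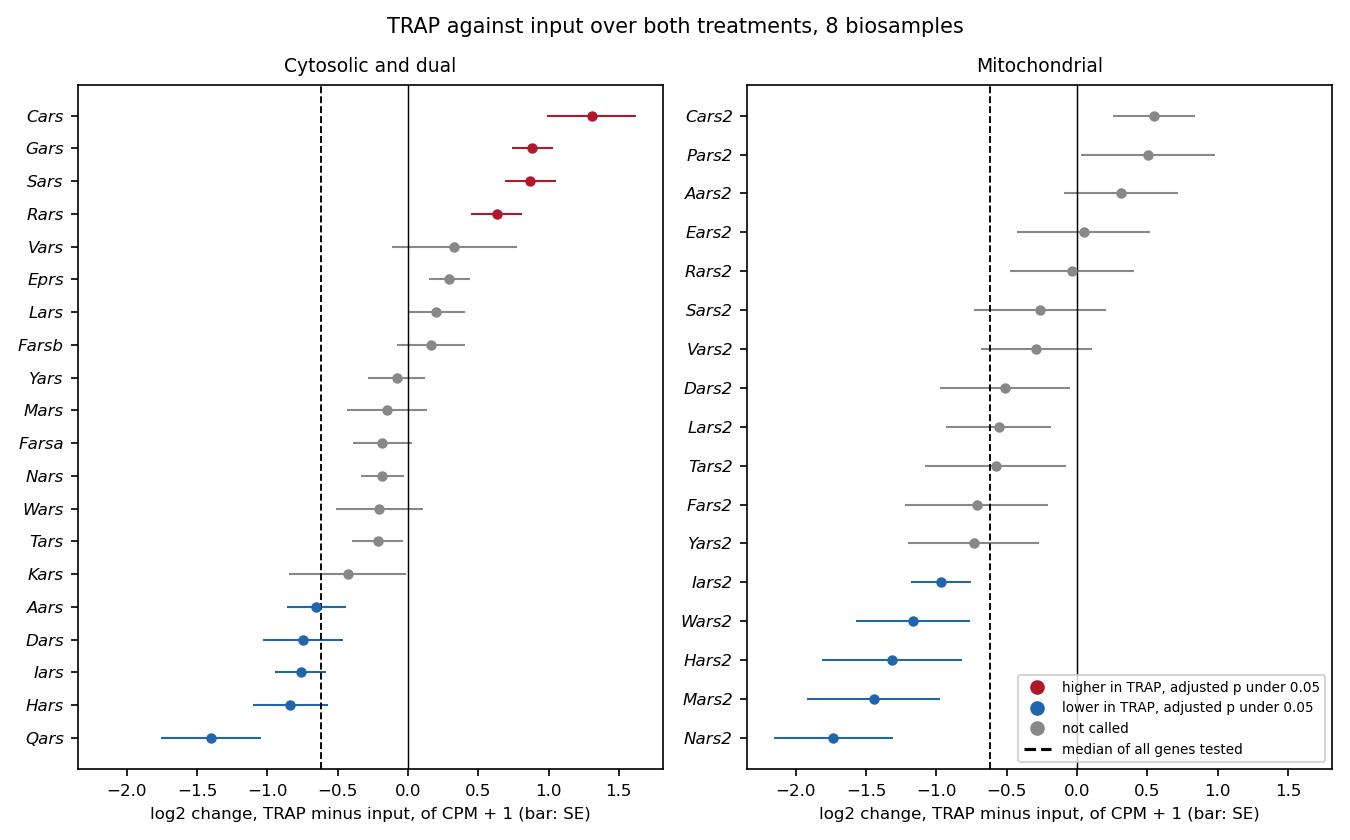
Log2 change of each member in TRAP against input over 8 biosamples, with its SE, for the cytosolic and dual genes (left) and the mitochondrial genes (right). Red genes were called higher and blue genes lower at an adjusted p under 0.05, grey genes were not called, on the deposited scale, and the dashed line marks the median of all genes tested at -0.62, below 25 of the 37 members; the mitochondrial median, negative here, was positive with quantile normalization.

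The other called members were also lower in TRAP. Wars2 (tryptophan, mitochondrial) changed by -1.17 (SE 0.404, adjusted p = 0.020 by limma), a direction that was lost under quantile normalization, where its value was 0.0889. In the same test Hars (histidine) changed by -0.84 (SE 0.267, adjusted p = 0.013), Iars (isoleucine) by -0.76 (SE 0.183, adjusted p = 0.0018), Dars (aspartate) by -0.75 (SE 0.282, adjusted p = 0.032) and Aars (alanine) by -0.65 (SE 0.207, adjusted p = 0.013), all in limma. Relative to the median of all genes Aars, Dars and Iars stood at -0.03, -0.13 and -0.14. Pulldowns were below their inputs in all 8 biosamples for Iars and Aars. The 23 members without a call ran from -0.74 for Yars2 to 0.55 for Cars2. Counted by biosample alone, 3 members were higher in TRAP in 8 of 8 biosamples (8.11%; Cars, Gars and Sars), against 4.30% of all genes, and 6 were lower in 8 of 8 (16.2%; Aars, Hars2, Iars, Iars2, Nars2 and Qars), against 20.8% of all genes.

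**Figure D3:**
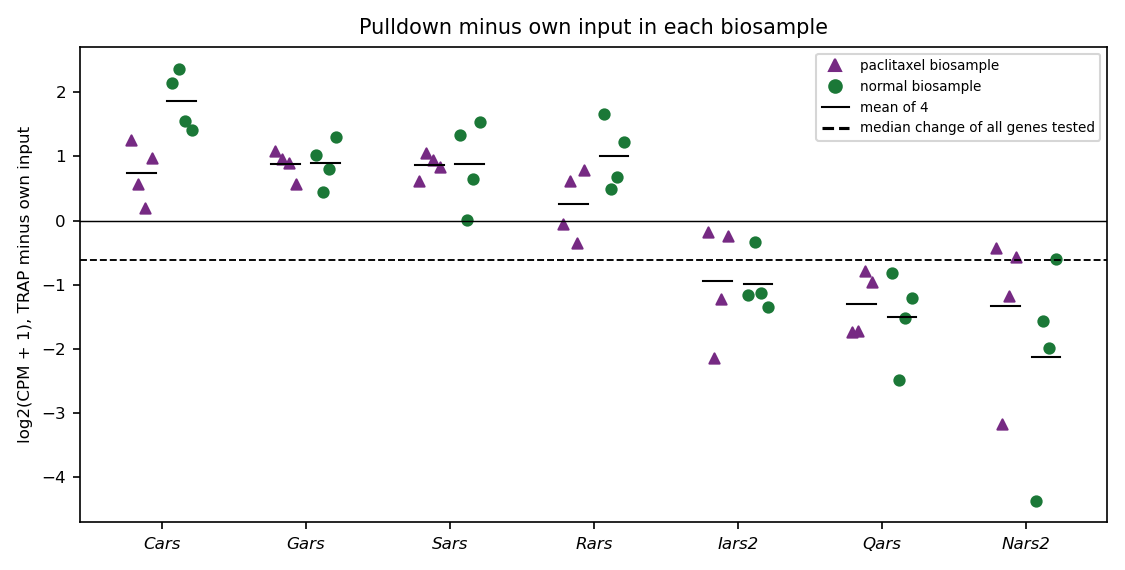
Pulldown minus own input in log2(CPM + 1) for the 7 members called under every alternative, with paclitaxel biosamples as triangles left of normal biosamples as circles and a line at the mean of 4. Cars, Gars and Sars lie above 0 in all 8 biosamples and Iars2, Qars and Nars2 below 0 in all 8, while Rars is below 0 in 2 paclitaxel biosamples; the dashed line is the median change of all genes at -0.62.

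Within paclitaxel mice, 2 members rose and 2 fell, 5.41% each, against 4.92% and 23% of all genes. The changes within each treatment come from the same fit of all 16 libraries. Their p-values thus rest on a spread shared by both treatments. Gars (0.88, SE 0.208, adjusted p = 0.0041) and Sars (0.86, SE 0.254, adjusted p = 0.015) were higher, and Iars2 (-0.94, SE 0.302, adjusted p = 0.023) and Aars (-0.92, SE 0.293, adjusted p = 0.023) lower, in limma. Aars had 36.0, 20.6, 27.7 and 48.8 CPM in paclitaxel TRAP, against 54.4, 44.2, 80.1 and 70.7 CPM in paclitaxel input, and each pulldown was below its own input. In normal mice Aars had 62.7, 49.6, 35.3 and 47.4 CPM in TRAP, against 65.0, 58.0, 61.1 and 67.5 CPM in input. Aars shares exons on the same strand, and a nearly identical 3′ end, with Exosc6, so reads of these genes may not be fully separate. The Exosc6 values in the table had a log2 change of 1.496, opposite in sign to that of Aars, in paclitaxel TRAP against input (SE 0.617, adjusted p = 0.072 by limma). The calls became 3 higher and 0 lower with median-ratio scaling and 7 and 0 with quantile normalization, and 1 call was left without biosample 6 or without biosample 7.

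Within normal mice, in the same fit of all 16 libraries, 5 members rose and 5 fell in TRAP, 13.5% each, against 5.09% and 24.7% of all genes. The higher members were Cars (1.87, SE 0.449, adjusted p = 0.0039), Cars2 (1.18, SE 0.414, adjusted p = 0.034), Rars (1.01, SE 0.261, adjusted p = 0.0063), Gars (0.89, SE 0.208, adjusted p = 0.0031) and Sars (0.88, SE 0.254, adjusted p = 0.013) in limma. Cars2, the cysteine enzyme of mitochondria, had 50.0, 49.8, 34.4 and 27.8 CPM in normal TRAP, against 18.7, 14.5, 17.6 and 16.4 CPM in normal input, without overlap. Exons of Cars2 overlap those of Naxd on the opposite strand, so reads of these genes may not be fully separate. The lower members were Nars2 (-2.13, SE 0.598, adjusted p = 0.011), Hars (-1.53, SE 0.378, adjusted p = 0.0048), Qars (-1.51, SE 0.505, adjusted p = 0.028), Iars (-1.06, SE 0.259, adjusted p = 0.0044) and Iars2 (-0.99, SE 0.302, adjusted p = 0.018). Hars had 4.29, 10.6, 31.1 and 18.6 CPM in normal TRAP, against 21.9, 67.0, 69.2 and 23.2 CPM in normal input, with each pulldown under its own input. Iars had 28.6, 49.8, 51.6 and 49.2 CPM in normal TRAP, against 98.1, 95.9, 101 and 74.8 CPM in normal input, without overlap. The split of calls became 6 higher and 2 lower with median-ratio scaling and 5 and 2 with quantile normalization. Without biosample 1 the number of calls was 5, and without the 4 biosamples with the fewest genes in their pulldowns (1, 2, 5 and 6) it was 4.

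Whether the pulldown change differed between treatments was tested as an interaction, which called 0 of 37 members in limma, against 0.19% of all genes (0.162% higher and 0.0281% lower), and 3 members had an unadjusted p under 0.05, as did 1611 of all 14214 genes. The lowest p was that of Rars2, the arginine enzyme of mitochondria. It had 35.5, 63.3, 53.8 and 13.2 CPM in paclitaxel TRAP, against 13.7, 11.5, 15.4 and 19.9 CPM in paclitaxel input. In normal mice it had 0.25, 18.4, 22.01 and 1.51 CPM in TRAP, against 13.8, 23.9, 15.7 and 7.03 CPM in input. The difference of the changes was 2.50 (SE 0.884, adjusted p = 0.26 by limma), with wide scatter among the normal pulldowns. Hars came next with 1.38 (SE 0.535, adjusted p = 0.31 by limma). For Gars and Sars the difference was -0.01 (SE 0.294) and -0.02 (SE 0.359).

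The 8 genes of the multisynthetase complex were called in both directions. Over both treatments 1 rose (Rars, 12.5%), 3 fell (Qars, Iars and Dars, 37.5%) and 4 had no call. Of all genes 7.64% rose and 41.6% fell. The median of the complex was -0.29, and it was 0.06 with median-ratio scaling and 0.22 with quantile normalization. Of the 12 cytosolic or dual genes outside the complex 3 rose (25%) and 2 fell (16.7%), with a median of -0.13. Summed over the complex, 409 to 788 CPM stood in TRAP, against 385 to 645 CPM in input, with the pulldown above its input in 4 of 8 biosamples. Eprs, which had the highest level in the complex, had a log2 change of 0.29 (SE 0.144, adjusted p = 0.093 by limma). Lars, the leucine enzyme that has been reported to sense leucine for Rag GTPases in mammalian cells, had one of 0.20 (adjusted p = 0.41 by limma). By catalytic class, 2 of 18 class I genes rose (11.1%) and 5 fell (27.8%), and the same counts held among the 18 class II genes.

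The 7 genes linked to inherited neuropathy in humans (Aars, Gars, Hars, Kars, Mars, Wars and Yars) were likewise divided. Over both treatments Gars rose (14.3%), Hars and Aars fell (28.6%) and 4 had no call, against 7.64% of all genes that rose and 41.6% that fell. Their median was -0.20. With median-ratio scaling or quantile normalization Gars alone was called and the median was 0.16 or 0.19. Their summed level was above input in 7 of 8 pulldowns, 321 to 572 CPM in TRAP against 277 to 426 CPM in input, and Gars supplied the largest part. Yars, the tyrosine enzyme, had 37.0, 70.2, 65.1 and 61.0 CPM in paclitaxel TRAP, against 51.7, 49.8, 64.0 and 74.0 CPM in paclitaxel input. It had 30.1, 54.5, 43.9 and 64.6 CPM in normal TRAP, against 46.5, 49.3, 50.3 and 53.9 CPM in normal input. Pulldown and input overlapped, with 4 of 8 biosamples higher in TRAP (log2 change -0.08, SE 0.203, adjusted p = 0.76 by limma). Exons of Yars overlap those of C77080 on the opposite strand, which fell by 0.86 (SE 0.345, adjusted p = 0.042 by limma).

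Of the 12 members known as targets of the amino acid response, 3 rose (Cars, Gars and Sars, 25%), 2 fell (Iars and Aars, 16.7%) and 7 had no call. Over all genes 7.64% rose and 41.6% fell. The median of the targets was -0.11, and it was 0.25 with median-ratio scaling (5 higher, 0 lower) and 0.24 with quantile normalization (3 higher, 1 lower). Gars, Aars and Iars carry the motif shown above in their promoter windows, and so do Tars (-0.22, adjusted p = 0.33) and Yars, which had no call in limma. Sars rose without the motif in its window, and no window of Cars was in the table. On the deposited scale windows with the motif thus belonged to genes that rose, fell and had no call. The falls of Aars and Iars were not called with median-ratio scaling, nor was that of Aars with quantile normalization.

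The next comparison asked whether paclitaxel changed synthetase mRNA on the ribosomes of Nav1.8 neurons. In TRAP 0 of 37 members passed in limma, against 1.82% of all genes (1.33% higher and 0.492% lower), and 7 members had an unadjusted p under 0.05, as did 2400 of all 14214 genes. The members' median log2 change was 0.34 and that of all genes 0.17, with 24 members above 0 and 13 below. Aars2, Iars and Qars (3 members, 8.11%) were higher in all paclitaxel pulldowns than in any normal pulldown, against 6.73% of all genes, and 1 was lower (2.70%; Cars), against 3.57%. These shares were near those of all genes. For Aars2 the separation rests on the average of biosample 7, whose subsamples had 0 and 7.39 CPM, against 0.22 to 2.12 CPM in normal pulldowns. In the same pulldowns the 10 pan-neuronal markers summed to 12983 to 20200 CPM after paclitaxel, against 21434 to 42236 CPM in normal mice. That lower sum was not shared across the list, in which 1 marker was called higher, 0 were called lower and the median log2 change was 0.39. The part of this shift in the members' values was not tested.

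Hars had the lowest p in this comparison. Its pulldowns had 74.6, 27.4, 70.3 and 70.0 CPM in paclitaxel biosamples 5 to 8, against 4.29, 10.6, 31.1 and 18.6 CPM in normal biosamples 1 to 4. The groups overlapped, since paclitaxel biosample 6 lay below normal biosample 3. Hars was 2.04 higher on the log2 scale (SE 0.584, adjusted p = 0.086 by limma), and it passed with a filter of 5 CPM (adjusted p = 0.029), with robust estimation (0.034) or without biosample 3 (0.046), in a range of 0.029 to 0.42 over 18 alternatives. The subsamples of biosample 7 had 35.6 and 104.9 CPM, and the change was 1.80 (adjusted p = 0.24) with subsample 1 alone and 2.18 (adjusted p = 0.079) with subsample 2 alone, in limma. In input Hars had a log2 change of 0.65 (adjusted p = 0.32 by limma).

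Cars was lower in the paclitaxel pulldowns but did not pass. It had 33.0, 17.8, 12.9 and 16.6 CPM in paclitaxel TRAP, against 63.6, 54.7, 40.4 and 39.9 CPM in normal TRAP, with no overlap. Its log2 change was -1.32 (SE 0.431, adjusted p = 0.13 by limma), and in input it was -0.20 (adjusted p = 0.71 by limma). Of the other members with an unadjusted p under 0.05, Rars2 had 2.59 (adjusted p = 0.18), Kars 2.102 (adjusted p = 0.21), Qars 1.73 (adjusted p = 0.29), Aars2 1.69 (adjusted p = 0.29) and Farsb 1.25 (adjusted p = 0.19), as log2 changes in limma. Kars, the lysine enzyme of both compartments, stood at 37.8, 7.46, 104.8 and 29.8 CPM in paclitaxel TRAP, against 7.98, 1.45, 12.35 and 9.71 CPM in normal TRAP, with biosample 7 far above the rest.

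In the whole extract 1 member passed, Qars, and 36 did not (2.70% called, against 1.64% of all genes, made up of 1.46% higher and 0.183% lower). Qars had 45.0, 35.6, 55.3 and 40.2 CPM in paclitaxel input, against 15.4, 12.2, 23.2 and 9.85 CPM in normal input. All paclitaxel inputs were above all normal inputs. Qars rose by 1.53 on the log2 scale (SE 0.268, adjusted p = 0.021 by limma). The call was lost, with changes of 1.41 to 1.57, without biosample 1, 5, 7 or 8, without the 4 biosamples named above and with no filter on low values, at adjusted p of 0.060 to 0.10, and over 18 alternatives the adjusted p was 0.0061 to 0.10. In TRAP Qars was likewise higher without overlap, 12.8, 10.2, 31.5 and 20.3 CPM in paclitaxel biosamples, against 8.28, 1.38, 7.49 and 3.68 CPM in normal biosamples, but did not pass (1.73, SE 0.790).

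**Figure D4:**
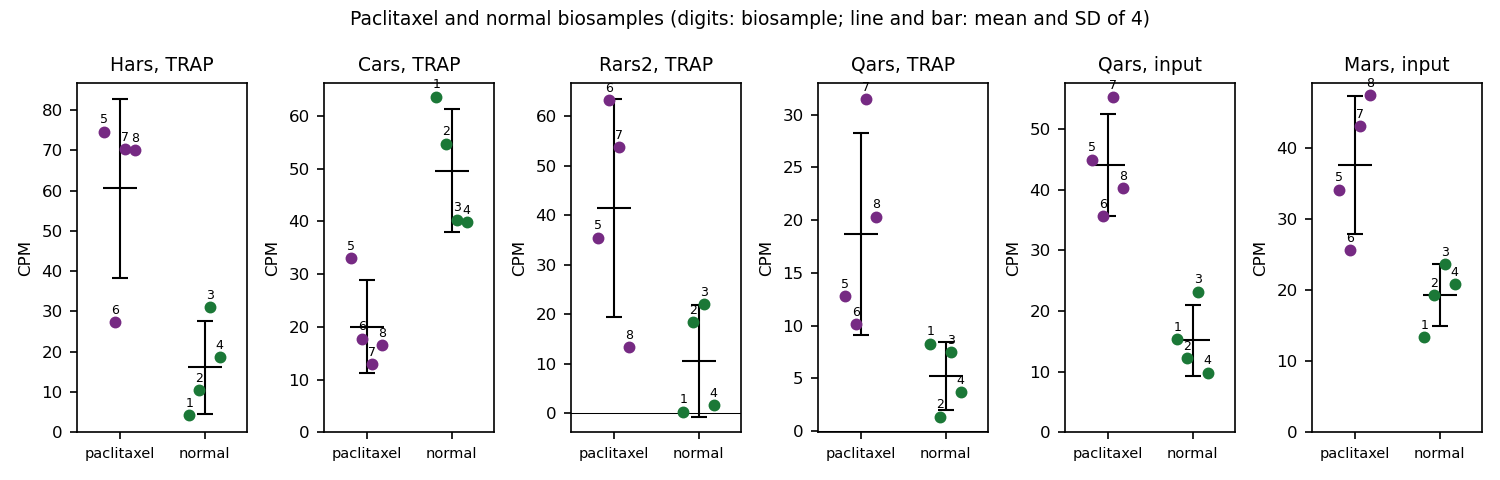
CPM of Hars, Cars, Rars2 and Qars in TRAP and of Qars and Mars in input, with 4 paclitaxel biosamples left of 4 normal biosamples in each panel and the mean and SD beside them. Paclitaxel values of Cars in TRAP lie wholly below, and those of Qars in TRAP and input and of Mars in input wholly above, the normal values, while Hars and Rars2 overlap; of these 6 differences Qars in input passed the test.

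Next to Qars in input stood Mars, the methionine enzyme, with 34.1, 25.6, 43.1 and 47.4 CPM in paclitaxel input, against 13.4, 19.3, 23.7 and 20.9 CPM in normal input, without overlap (0.91, SE 0.255, adjusted p = 0.082 by limma). Mars overlaps Ddit3 on the opposite strand, which had a log2 change of 0.40 (adjusted p = 0.42 by limma). Dars, Fars2, Mars and Qars (4 members, 10.8%) were higher in all paclitaxel inputs than in any normal input, against 8.16% of all genes, and 0 were lower, against 3.14%. The members' median was 0.27 and that of all genes 0.14, with 28 members above 0. Markers of other cells moved in the same inputs. Of 5 erythroid markers 2 rose, with sums of 1600 to 3726 CPM in paclitaxel input, against 847 to 1189 CPM in normal input, and pan-neuronal markers summed to 8418 to 10516 CPM in paclitaxel input, against 13813 to 16472 CPM in normal input. The lower pan-neuronal sum was not shared across that list, since 1 of its 10 markers was called lower (Uchl1), 9 had no call and the log2 changes ran from -1.14 to 0.59 with a median of -0.14. The part of these cell types in the Qars difference was not tested.

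Genes that work beside the synthetases were read from lists chosen with earlier results of these data known. Over both treatments 7.64% of all genes rose in TRAP and 41.6% fell. Among 3 scaffold genes of the multisynthetase complex Aimp1 rose in TRAP over both treatments (0.83, SE 0.175, adjusted p = 0.00063 by limma) and the other 2, Aimp2 and Eef1e1, had no call. Of 5 genes that complete charging or deliver charged transfer RNA in mitochondria, 3 fell: Qrsl1 (-2.08, SE 0.472, adjusted p = 0.0011) and Gatc (-1.49, SE 0.524, adjusted p = 0.023), subunits of the amidotransferase that makes glutaminyl-tRNA in mitochondria, and Mtfmt (-1.29, SE 0.289, adjusted p = 0.0010), which formylates the initiator methionyl-tRNA, all in limma. The list's summed level was below input in all 8 pulldowns, and its median was -1.29, against -0.62 over all genes. With median-ratio scaling or quantile normalization Qrsl1 and Mtfmt were still called lower, Gatc was not, and Gatb, another subunit, was called higher. In paclitaxel against normal inputs Mtfmt rose by 1.07 (SE 0.237, adjusted p = 0.039) and Tufm, the mitochondrial elongation factor that delivers charged transfer RNA, by 1.48 (SE 0.316, adjusted p = 0.034) in limma. With median-ratio scaling Tufm alone of this list was called in that comparison, and with quantile normalization 0 were. On the deposited scale 1.64% of all genes and 0 of the 17 mitochondrial synthetases passed there. Mitochondrially encoded mRNA made up 0.0563% to 0.414% of reads in TRAP, against 0.382% to 2.30% in input. Of 8 tested genes for selenocysteine and for editing of charged transfer RNA, 2 fell and 0 rose on the deposited scale (1 with median-ratio scaling, 0 with quantile normalization), with Prorsd1 at -2.13 (SE 0.505, adjusted p = 0.0017) and Secisbp2, which binds selenocysteine insertion elements, at -1.08 (SE 0.428, adjusted p = 0.041).

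Of 48 tested genes that mature or modify transfer RNA, 4 rose and 9 fell on the deposited scale, against 7.64% and 41.6% of all genes. The median of the list was -0.45, against -0.62 over all genes. The split was 10 and 4 with median-ratio scaling and 14 and 1 with quantile normalization, where the median was 0.39. The higher genes, called under all 3 scalings, were Pop5 (1.17, SE 0.169, adjusted p = 1.2e-05) and Rpp40 (1.01, SE 0.326, adjusted p = 0.014), subunits of RNase P, Ddx1 of the transfer RNA ligase complex (0.52, SE 0.202, adjusted p = 0.035) and the cytosine methyltransferase Nsun2 (0.45, SE 0.141, adjusted p = 0.012) in limma. The largest falls were those of the methyltransferase Trdmt1 (-1.70, SE 0.497, adjusted p = 0.0075), the RNA kinase Clp1 (-1.67, SE 0.490, adjusted p = 0.0076), the RNase P subunit Rpp30 (-1.64, SE 0.490, adjusted p = 0.0086) and Cdkal1, which thiomethylates a lysine transfer RNA (-1.45, SE 0.474, adjusted p = 0.015). None of these 4 falls was called with quantile normalization, and that of Cdkal1 was not called with median-ratio scaling either.

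Elongation factor 1, which carries charged transfer RNA to the ribosome, had 4 of 5 subunits higher in TRAP, under all 3 scalings. On the deposited scale 7.64% of all genes rose and 41.6% fell. Eef1b2 rose by 1.35 (SE 0.150, adjusted p = 3.7e-07), Eef1g by 0.94 (SE 0.173, adjusted p = 0.00017), Eef1a2 by 0.65 (SE 0.183, adjusted p = 0.0059) and Eef1d by 0.63 (SE 0.146, adjusted p = 0.0014), whereas Eef1a1 fell by 0.61 (SE 0.133, adjusted p = 0.00079) in limma. The fall of Eef1a1 lay at the median of all genes (-0.62). It was not called with median-ratio scaling but was still called with quantile normalization. The summed level of the 5 genes was above input in all 8 pulldowns, 1637 to 2461 CPM in TRAP against 878 to 2259 CPM in input. After paclitaxel Eef1a1 was higher in TRAP (1.76, SE 0.381, adjusted p = 0.034) and Eef1d lower (-1.53, SE 0.273, adjusted p = 0.015) in limma. In that comparison 1.82% of all genes and 0 of the 37 synthetases passed.

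Of 20 genes of the amino acid response other than synthetases, 1 rose in TRAP (Atf5, 0.46, SE 0.133, adjusted p = 0.0068 by limma) and 6 fell, with a median of -0.25. Of all genes 7.64% rose and 41.6% fell. With median-ratio scaling 2 rose and 5 fell and with quantile normalization 4 and 4, with medians of 0.05 and 0.25. The falls included Slc7a11, a cystine exchanger (-2.90, SE 0.479, adjusted p = 5.8e-05), Nupr1 (-2.33, SE 0.481, adjusted p = 0.00052), the serine synthesis enzyme Phgdh (-2.14, SE 0.465, adjusted p = 0.00078) and the leucine sensor Sesn2 (-1.57, SE 0.474, adjusted p = 0.0092) in limma. After paclitaxel 1 of the 20 was higher in TRAP, Slc3a2 (2.82, SE 0.484, adjusted p = 0.014), and 1 lower, its partner in amino acid transport Slc7a5 (-2.03, SE 0.266, adjusted p = 0.0078), and in input 0 passed. Of the 12 synthetases among the response's targets 0 passed in either of these comparisons, against 1.82% of all genes in TRAP and 1.64% in input.

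**Figure D5:**
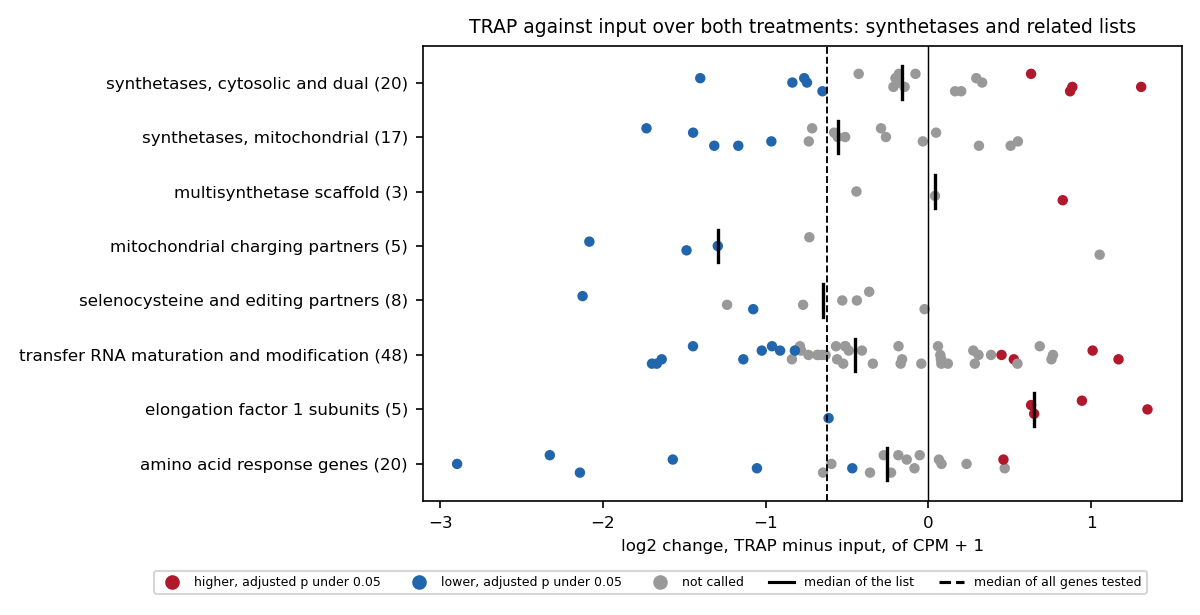
Log2 change in TRAP against input over both treatments for the synthetases of each compartment and for 6 related lists, 1 point per gene, with red for genes called higher, blue for genes called lower and a bar at each list's median. The dashed line is the median of all genes at -0.62; on this deposited scale mitochondrial charging partners have the lowest of the medians shown at -1.29 and elongation factor 1 subunits the highest at 0.65.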

How the data were processed

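The deposited table gives values per gene in CPM for 18 libraries, made by the authors from 3′ end RNA-seq libraries of pulldowns and inputs. Its columns are headed TPM, but the values step by a constant per library, without a length term, so they were treated as CPM. The submitters' processing notes name Cufflinks 2.2.1, Bowtie2 2.2.9, TopHat2 2.1.1 and FastQC 0.11.5, with the build GRCm38.p4, in no stated order. GENCODE vM10 gene models are named per the file headers, while the strand setting is not given in the sources used here. Reads per library were estimated from the steps, with 98% to 99.1% of values whole within 0.0051 CPM, so 3 reads, taken as the level a count of 0 allows, equal 0.0917 to 0.502 CPM in TRAP and 0.207 to 0.703 CPM in input. This limit covers counting error only.

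Subsamples of biosample 7 were averaged, and 2 columns of the authors' merged values were left out, which leaves 16 libraries. Genes with at least 1 CPM in 4 libraries were tested on log2(CPM + 1) with limma 3.58.1 in R 4.3.3, with a variance trend and Benjamini-Hochberg adjustment over 14214 genes at 0.05. Fold changes on this scale understate those of low genes. TRAP and input were compared with biosample as a block, because both come from 1 extract. The changes within each treatment and the interaction were taken from that 1 fit of 16 libraries, with 1 shared spread per gene. Each pulldown's deviations correlated best with its own input, at 0.0534 to 0.376. The highest correlation with another input of the same treatment was 0.00372 to 0.165. Some margins were small, as in normal biosample 1 with 0.0534 against 0.0398. Paclitaxel and normal were compared in separate fits of 8 pulldowns and 8 inputs. The test of TRAP against input over both treatments was also run on simulated data, with changes placed in genes of higher level only. It thus did not cover changes in low genes or the comparisons of paclitaxel with normal.

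The members and the gene lists were chosen with earlier results of these data known. Values per library are given for the 4 called members with the largest change in each comparison and direction, for the 2 with the lowest p where none was called, and for Gars and Yars, and for up to 4 called genes per list the change is given. Other members named with values, such as Kars, Mars and Eprs, were chosen after their values were seen. Exon overlaps come from GENCODE vM21 on GRCm38. Alternatives were other pseudocounts, filters, scalings, subsamples and blocks, robust estimation and leaving out biosamples.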

Additional observations from a re-analysis of the deposited data

Results flagged for a closer look

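Among 148 groups of 4 libraries, 4 held a library whose gap to its nearest neighbour took up more of the group's range than the 95% critical value of Dixon's test allows, and chance gives about 1 such group in 20. Hars stood at 27.42 CPM in the pulldown of paclitaxel biosample 6, against 69.97 to 74.56 CPM in the other paclitaxel pulldowns, and this library is the one by which the paclitaxel and normal ranges of Hars overlap. Iars stood at 28.58 CPM in the pulldown of normal biosample 1, against 49.23 to 51.61 CPM in the other normal pulldowns. Sars2 stood at 6.41 CPM in the pulldown of normal biosample 3, against 0 to 0.15 CPM in the others. Farsa, which encodes a subunit of the cytosolic phenylalanine enzyme, stood at 106.19 CPM in the input of normal biosample 4, against 50.29 to 58.85 CPM in the other normal inputs.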

How the results depend on the processing

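Of 653 values of named members under alternatives, 565 kept their direction and side of the threshold, 84 lost the call, 3 gained it and 1 turned round: Wars2 in TRAP against input, at 0.0889 with quantile normalization (adjusted p = 0.86 by limma). Over both treatments the calls lost were those of Dars (11 of 20 alternatives), Hars2 (9), Hars (5), Mars2 (5), Wars2 (4 of 19), Aars (2) and Iars (1). Leaving out 1 biosample in turn gave 10 to 14 calls over both treatments, 1 to 6 in paclitaxel mice, 5 to 11 in normal mice, 0 to 1 for paclitaxel against normal in TRAP and 0 to 2 in input. Without the 4 biosamples with the fewest genes in their pulldowns, an alternative chosen after seeing the data, normal mice had 4 calls and paclitaxel against normal in input 0. With quantile normalization paclitaxel mice had 7 calls. In TRAP a filter of 5 CPM gave 1 call for paclitaxel against normal, as did robust estimation, and both calls were Hars; in input no filter gave 0. Without the replicate block the calls in TRAP against input were 11 over both treatments, 4 in paclitaxel and 10 in normal mice, and with a random block 14, 5 and 11, with 0 for the interaction under every alternative. A planned edgeR test was not run, because the deposited values could not be turned into whole reads in every library. Low depth limits the mitochondrial genes most: 30 pulldown values, those of 11 mitochondrial genes and Vars, were at or under 3 reads, 15 of these at 0.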
